A study of Mus musculus with 24 samples.

Results

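D2A1 tumors grown in immunodeficient SCID-beige mice were compared with the same D2A1 cells grown in culture, in 8 of the 24 RNA-seq libraries of the series, chosen by cell line, host and growth state as the labels give them. D2A1 is a mammary carcinoma line that came from D2 hyperplastic alveolar nodules of BALB/c mice and is used as the fast-growing counterpart of its dormancy-competent sister line D2.1. The tumor group was 5 tumors from female SCID-beige mice with the Prkdc scid and Lyst bg mutations on the C.B-Igh-1b/GbmsTac background, which lack T and B cells and have defective NK cells, and that received 1000000 cells in the mammary fat pad at 8 to 12 weeks of age. The tumors were taken at a volume of about 500 mm3. The culture group was 3 libraries of the line in culture. The labels give no other treatment for either group. The study sequenced tumors to compare the lines with each other, and hosts with and without adaptive immunity; 5 D2.1 SCID-beige tumors with their 3 cultures, and 4 D2A1 tumors from immunocompetent BALB/c mice, served below as points of comparison.

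A tumor in the fat pad is a mixture. The injected carcinoma cells are joined by macrophages, neutrophils, blood vessels, pericytes, fibroblasts and fat from the host, and whole-tumor RNA is the sum of all of them, whereas a culture dish holds the line alone. Carcinoma cells in a tumor also meet limits that rich medium does not impose, such as low oxygen, a supply of growth factors that depends on vessels and neighbouring cells, and a matrix that they must build or remodel. In bulk RNA a lower level may come from fewer cells of a type or from less RNA per cell, and these cannot be told apart here, nor can transcript of the carcinoma cells be told from transcript of host cells for a gene that both use.

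The 3 cultures held 16837260 to 17300347 counts and the 5 tumors 13566949 to 15427510, so that 3 counts, the smallest amount treated as detection, stood for 0.174 to 0.189 CPM (counts scaled to the normalized library size) in culture and 0.186 to 0.21 CPM in tumor. Cultures correlated with each other at 0.986 to 0.994 and tumors at 0.932 to 0.978 (Pearson r of log2 CPM, taken across genes, which do not replicate each other). In a principal component analysis the leading axis held 84.6% of the variance and parted tumors from cultures, and the next, with 7.61%, parted tumors 1 and 2 from tumors 3, 4 and 5. Transcripts of the mitochondrial genome took 0.585% to 0.915% of culture counts and 1.46% to 2.15% of tumor counts. The labels do not say that the 3 cultures were grown separately, so p-values measure the spread between these libraries, which may be technical on the culture side.

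Cultures and tumors came in different count tables made with different gene annotations, so tissue state and table cannot be told apart. Of 35275 genes in the culture table and 54532 in the tumor table, 34519 were in both and were compared by their Ensembl identifiers. Among genes tested, 1358 (9.79%) have exons that overlap a gene listed in the tumor table alone, a layout in which reads can be assigned differently in the 2 tables. Called falls of more than 3 on the log2 scale made up 4.34% of these genes and 0.599% of the others, whereas rises of that size made up 9.13% and 12.5%. Of the genes named from here on, the following have such an overlap: Raver1, Nupl1, Gm49342, Gnpnat1, Hgs, Nnt, Sept2, Fdps, Rpl13a, Rps10, Krt8, Cd74, Id4, Igf2bp1, Eomes, Col3a1, Krt5, Alas2, Top2a, Ccnd2, Cdkn1a, Cdk6, Ncl, Mxd4, Hmgcs1, Idi1, Scd2, Ddit3, Atf5, Pkm, Spp1, Actg1, Bax, Tkt, mt-Co1, mt-Nd1, Rpl10, Rpsa, Hmga1 and Sbsn.

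Most of the measured transcriptome differed between tumor and culture. Of 13869 genes tested, 8054 (58.1%) passed an adjusted p of 0.05 in edgeR's quasi-likelihood test, 4655 (33.6%) of them higher and 3399 (24.5%) lower in tumor, and these shares are the background for every list below. The groups did not overlap in 7877 genes (56.8%). A gene of that kind reached 0.0357, the smallest p that a 2-sided exact permutation of 5 against 3 libraries allows. Rises were larger than falls: 1103 genes rose and 54 fell by more than 5 on the log2 scale, although the median of all genes tested was 0.10. Rises with 3 counts or fewer in each of the 6 cultures of both lines numbered 711, or 15.3% of all rises, and these genes took 0.572% to 0.768% of tumor counts. Among the 11076 genes with at least 1 CPM in every culture the balance turned, with 2609 higher and 3344 lower and a median of -0.13. In the sentences that follow, rose and fell are used of genes with an adjusted p under 0.05 in this test, and changes are log2 fold changes of tumor over culture with their standard error. A fitted change for a gene at or near 0 in culture depends on the fit's prior count, so levels are given for those. A gene absent from culture passed the filter on low counts only through the tumors, so it could be tested only as a rise. In lists that hold such genes the number of rises is partly fixed by that filter. Values given with the replicate block, or the block, come from an alternative fit by replicate number, which is not a known pairing. Tumors without a culture of the same number do not enter its estimate of the change. Block values show how a result depends on the fit and are not taken as evidence of a change.

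The largest rises, among protein-coding genes with at least 20 CPM in tumor and no overlap of the groups, were genes of macrophages, of red cells and of the insulin-like growth factor and retinol systems. C1qa (ENSMUSG00000036887, chr4:136895917-136898803, minus strand, GRCm38), a chain of the complement recognition protein C1q made mainly by macrophages, had no count in any culture and 297, 487, 346, 382 and 208 CPM in tumors 1 to 5, which is at least 5645-fold higher when 3 counts over the 3 cultures together are taken as the floor. Its partners C1qb and C1qc were also at 0 in culture, with 267 ± 86.3 and 228 ± 69.1 CPM in tumor (SD, n = 5). All 5 tumors were high for these genes, and tumor 5 had the lowest level of each. Lyz2, the lysozyme of myeloid cells, had 3 counts in all cultures together and 1290.0, 1032, 1350.4, 1229 and 870.1 CPM in the tumors, a ratio of 18850.0 (exact Poisson interval 6450.2 to 91407 at 95%, for counting error only).

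Igfbp3 (chr11:7206086-7213923, minus strand), which binds insulin-like growth factors in tissue fluid, had no count in culture and 338, 270.2, 269.6, 281 and 268 CPM in tumors 1 to 5, at least 4681-fold higher. Tumor 1 stood above the other 4, which lay within 15 CPM of each other. Stra6 (chr9:58063788-58153996, plus strand), the membrane receptor that takes up retinol from its binding protein, was likewise at 0 in culture and at 217.3, 234, 179, 177 and 169.5 CPM in the tumors, at least 3205-fold higher. The hemoglobin genes Hbb-bs and Hba-a1, which are near-identical to their neighbours in the globin clusters, had no culture counts. Hbb-bs stood at 39.2, 40.4, 27.9, 95.3 and 877 CPM and Hba-a1 at 22.7, 29, 19.1, 66.7 and 657 CPM in tumors 1 to 5. Both were detected in all 5 tumors, but tumor 5 held most of the signal: the fitted change of Hbb-bs was 14.72 ± 3.04 with it and 12.63 without it, and that of Hba-a1 14.28 ± 3.15 and 12.07.

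The 8 largest falls by the same rule all belonged to genes with an annotation overlap, and all 8 were at or near 0 in the D2.1 tumors too. Raver1 fell from 303, 297 and 277 CPM to no count in any tumor, Nupl1 from 103, 114 and 129 CPM to none, and Sept2 from 399, 393 and 431 CPM to between 1.37 and 3.6 CPM. Gm49342 (-12.97), Gnpnat1 (-10.17, and -11.15 without tumor 3), Hgs (-9.15), Nnt (-8.09) and Fdps (-6.85) made up the rest. In all, 13 genes had at least 8 CPM in every culture of either line and 20 counts or fewer in each of the 18 tumors, and 12 of these 13 carried the overlap. These falls cannot be told apart from the change of table.

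Falls without an annotation overlap were smaller and included regulators, transporters and junction proteins. The following were chosen after their values were seen, as the largest of that kind. Wdr74, described last, had the largest fitted fall (-6.76), and Dlx2 the next. Dlx2 (chr2:71543408-71546754, minus strand), a homeobox transcription factor, went from 22.4, 23.1 and 19.1 CPM in cultures 1 to 3 to 0.206, 0.27, 0.0698, 0.374 and 0.496 CPM in tumors 1 to 5, with a change of -6.19 ± 0.35 (adjusted p = 1.3e-07). Cyp1b1, a cytochrome P450 that oxidizes estrogens and aromatic hydrocarbons, went from 198, 200.1 and 292 to 4.8, 3.85, 7.89, 12.5 and 7.31 CPM (-4.98 ± 0.33). Tfrc, the transferrin receptor through which dividing cells take up iron, went from 674, 686 and 859 to 37.6, 48.1, 51, 96.3 and 84.3 CPM (-3.54 ± 0.29). In each of these every tumor lay far below every culture. Atp1b1, the beta subunit of the sodium pump, fell by 5.16, Rnf128, a membrane-anchored ubiquitin ligase, fell by 4.76, Cgn, the tight-junction protein cingulin, fell by 4.65, and Ptger1, a prostaglandin E receptor, fell by 4.61. P3h2, which hydroxylates proline in collagen, fell by 3.25, and Cavin2, a component of caveolae, fell by 3.11. Mum1l1 (-4.1) and Vps51 (-3.16) were also among the 12 largest. Wdr74, a factor of ribosome maturation, went from 114, 116 and 64.5 to 0.411, 0.879, 0.489, 1.56 and 1.12 CPM and changed by -7.24 in D2.1 as well. Like the falls of the paragraph before, that of Wdr74 was shared by both lines and cannot be told apart from the change of table. Tissue state and table are confounded for every gene, so the other falls of this paragraph cannot be told apart from it either.

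**Figure D1:**
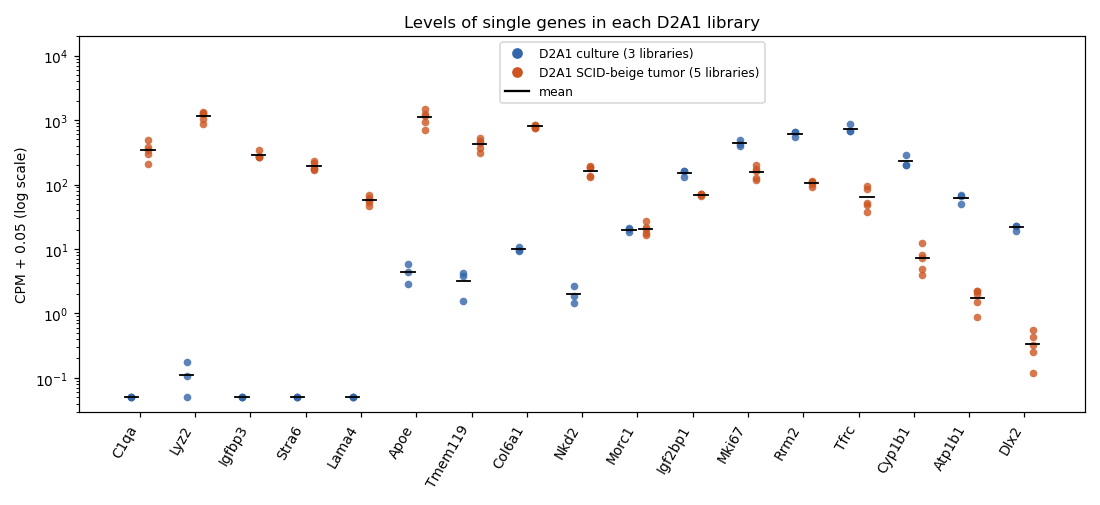
CPM of 17 genes on a log axis, with 0.05 added, one point for each of the 3 cultures and 5 tumors. Genes such as C1qa, Igfbp3, Stra6 and Lama4 sit at 0 in culture and above 40 CPM in every tumor, Morc1 overlaps between the groups, and Dlx2, Cyp1b1, Atp1b1, Rrm2, Mki67 and Tfrc lie lower in every tumor than in every culture.

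Markers of host cells that were absent or low in culture were found in every tumor. All 15 macrophage genes rose. The summed level of this list was 4.71 to 6.56 CPM in culture and 1938 to 2967 CPM in tumor, lowest in tumor 5. Csf1r, the receptor on which macrophages depend, had 1 count in culture and 156, 179, 197, 143 and 144 CPM in the tumors, Adgre1, which encodes F4/80, had none and 25.4 to 68.6 CPM, and the lysosomal glycoprotein Cd68 went from between 1.18 and 2.84 CPM to between 81.8 and 128 CPM (5.5 ± 0.33). The median change was 12.49, or 10.09 when genes at 0 in culture are set at their lower bound. Mertk (1.45) and Cd163 (4.53), a receptor for dying cells and a hemoglobin scavenger, rose least.

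Neutrophil, dendritic cell and mast cell genes were lower in level. Of 9 neutrophil genes 5 passed the filter on low counts and all 5 rose, and the summed level went from between 0.31 and 0.697 CPM to between 31.8 and 163 CPM, with tumor 4 highest. As 4 of these 5 had no count in culture, they passed the filter only through the tumors and could be tested only as rises. S100a9, a subunit of the antimicrobial protein calprotectin, was at 0 in culture and 29.8, 13.7, 10.1, 66.6 and 13.9 CPM in tumors 1 to 5, and without tumor 4 the fitted change of its partner S100a8 was 4.13 in place of 5.08. The receptor Csf3r was at 11.7 to 44.8 CPM. Of 8 dendritic cell genes 5 were tested and 4 rose: Itgax (19 to 31.7 CPM, 0 in culture), which macrophages share, and Ccr7, Xcr1 and Cd209a at lower levels. Zbtb46 was at 6.74 to 9.75 CPM in culture and 4.67 to 7.44 CPM in tumor (-0.38 ± 0.25, adjusted p = 0.22). None of 6 mast cell genes passed the filter, and their sum was 0 in culture and 0.947 to 2.74 CPM in tumor.

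Lymphocyte genes stayed close to the detection limit in tumors from a host without T and B cells. None of the 7 B and plasma cell genes passed the filter. Their sum was 0.232 to 0.31 CPM in culture and 0.374 to 0.838 CPM in tumor. Of 10 T cell genes 2 were tested. Cd4, which some myeloid cells also carry, went from 2 counts in all cultures to between 0.434 and 2.3 CPM, and Trac was at 2.02, 0.372 and 0.058 CPM in culture and 2.5 to 3.84 CPM in tumor, a call (adjusted p = 0.039) that was lost without any 1 of 5 libraries (adjusted p up to 0.14). Cd8a was at 0 to 0.27 CPM and Foxp3, the factor of regulatory T cells, at 0 to 0.14 CPM, and neither was tested. Of 8 NK cell genes 4 were tested: Klrk1 (0.558 to 2.65 CPM, 0 in culture) and Gzma (0.558 to 1.37 CPM) rose, and Gzmb was at 0.063 to 0.31 CPM in culture and 0.0623 to 1.26 CPM in tumor (adjusted p = 0.065, and 0.012 with the replicate block). Eomes, a T-box factor of NK cells, fell from 35.5, 35.4 and 29.7 to 10.3, 16.2, 11.7, 6.85 and 13.3 CPM (-1.52 ± 0.24). The NK sum in culture was 29.8 to 36 CPM, so this 1 gene, which has an annotation overlap, made up nearly all of it.

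Vessels, mural cells, fibroblasts and fat were all represented. The 12 endothelial genes rose, with a sum of 3.13 to 4.59 CPM in culture and 379 to 462 CPM in tumor. Pecam1, the adhesion molecule CD31, was at 89.3, 79.9, 94.8, 69.2 and 94 CPM in tumors 1 to 5 against 4 counts in all cultures, Cdh5, which encodes VE-cadherin, at 63.7 to 102 CPM, Plvap, a diaphragm protein of fenestrated vessels, at 76 to 97.6 CPM, and the VEGF receptor Kdr at 13.8 to 30.2 CPM. The spread between tumors was narrow for these genes compared with the distance from culture. The lymphatic genes Flt4 (11.4 to 17 CPM) and Lyve1 (0.908 to 7.75 CPM) were at 0 in culture, and Flt4 is also found on blood vessels of tumors.

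All 10 pericyte and smooth muscle genes rose (median 5.17), but part of this list was expressed by cultured D2A1 cells. Pdgfrb, the PDGF receptor of mural cells, was at 37.6, 40.1 and 65.6 CPM in culture and 501, 339.6, 669.8, 639.8 and 554 CPM in tumor (3.5 ± 0.29), and Acta2, smooth muscle actin, at 14.9 to 17.2 and 50.1 to 147 CPM (2.65 ± 0.35). Notch3 (5.78, and 6.79 without culture 3) rose from under 2 CPM, and Rgs5 from 3 counts in all cultures to between 12 and 20.7 CPM. All 12 fibroblast genes rose, and their sum went from between 84.8 and 109.7 CPM to between 1685 and 4327 CPM. Col1a1, the main chain of type I collagen, was at 102, 93.3 and 71.9 CPM in culture and 1308, 727, 936, 1793 and 1196 CPM in tumor (3.74 ± 0.31), whereas Col1a2, the other chain of the same protein, was at 0.406 to 1.12 CPM in culture and 331 to 847 CPM in tumor. Col3a1 was at 0 to 0.744 and 359 to 1143 CPM. Dcn (12.7 to 41.2 CPM) and Thy1 (28.4 to 67.7 CPM) were at 0 in culture.

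Of 9 adipocyte genes 8 were tested and all 8 rose. Fabp4, the fatty acid carrier of fat cells and of capillary endothelium, reached 45.8, 40.4, 27.7, 50.1 and 89.2 CPM, Cfd, the protease adipsin, 15.6, 17.6, 10.6, 25 and 61.6 CPM, and the lipid droplet protein Plin4 3.79 to 19.96 CPM. The summed adipocyte level, 52.9 to 228 CPM in tumor, varied more among tumors than the endothelial sum did. Skeletal muscle contributed little: 4 of 10 genes were tested, Tnnt3 (1.12 to 6.15 CPM) and Tnni2 (3.72 to 5.9 CPM) rose, and Mylpf was at 0.871 to 1.61 CPM in culture and 0.419 to 4.8 CPM in tumor. Of 9 skin genes 3 were tested, where Krt10 gave 0.28 (adjusted p = 0.63), Sbsn (0.274 to 1.43 CPM) and Krt5 (0 to 1.71 CPM, 0 in culture) rose. Krt5 had no count in tumor 5, so its groups overlapped (exact permutation p = 0.14), and it passed the filter in only 5 of the fits with 1 library left out. Of 5 Schwann cell genes Mbp (5.88 to 8.74 CPM) and S100b (0.81 to 2.13 CPM) rose. Of 7 milk protein genes only Csn3 was tested, and it was at 1.04 to 2.4 CPM in culture and 0.374 to 0.744 CPM in tumor (-1.7 ± 0.45), a fall that lost its call under GC offsets (adjusted p = 0.070), under the replicate block and without culture 1 (0.055). Of 5 red cell genes 4 were tested and rose, including Hba-a2 (0.978 to 59.1 CPM) and Alas2 (2.37 to 56.5 CPM), both highest in tumor 5. Without it their fitted changes were 8.56 in place of 10.8 and 2.7 in place of 4.98.

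**Figure D2:**
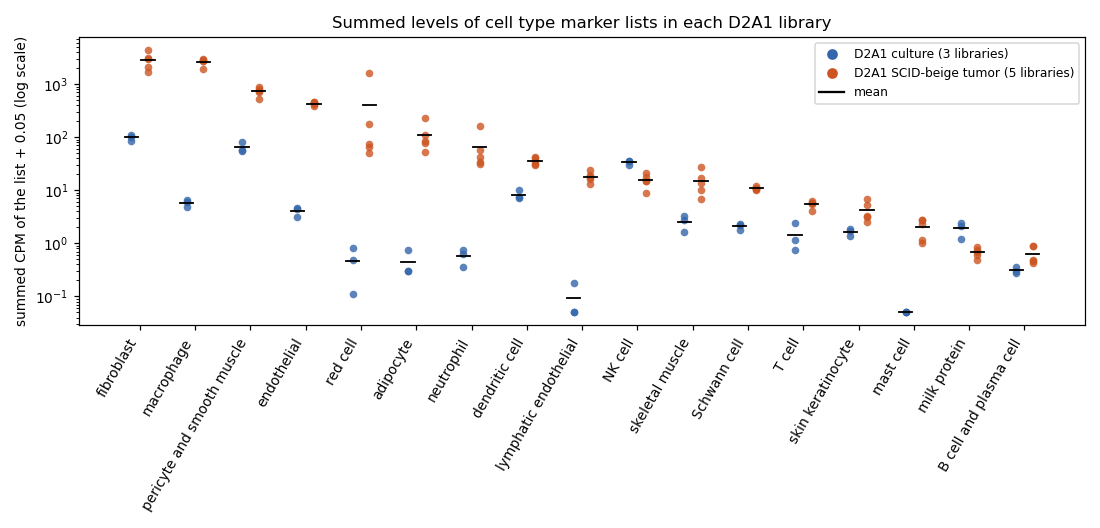
Summed CPM of 17 lists of cell type markers, one point for each library, on a log axis. Macrophage, fibroblast, pericyte and endothelial sums lie above 370 CPM in every tumor, whereas the B and plasma cell sum stays under 1 CPM. The NK cell sum, made up mostly of Eomes, is lower in every tumor than in every culture.

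Genes that the line already expressed in culture also rose. Apoe (chr7:19696109-19699188, minus strand), the lipid carrier that macrophages produce in quantity, went from 5.8, 4.4 and 2.84 CPM in cultures 1 to 3 to 932, 1489, 1174, 1260.2 and 696 CPM in tumors 1 to 5 (8.0 ± 0.39, adjusted p = 4.6e-08). Tmem119, a membrane protein known from microglia and osteoblasts, went from 4.22, 3.72 and 1.51 to 482, 536, 375, 441 and 307 CPM (7.09 ± 0.38). Nkd2, an inhibitor of Dishevelled that is induced by Wnt signaling in several cell types, went from 2.58, 1.43 and 1.8 to 177, 137, 187, 193 and 130.2 CPM (6.41 ± 0.28). The lowest tumor exceeded the highest culture for each by a wide margin.

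The 3 chains of type VI collagen, a beaded microfibril that joins cells to interstitial matrix, rose side by side. Col6a1 (chr10:76708792-76726168, minus strand) stood at 10.8, 9.68 and 9.29 CPM in culture and 851, 762, 762, 826 and 780.5 CPM in the tumors (6.33 ± 0.19), a spread of under 100 CPM across 5 animals. Col6a2 stood at 4.29, 6.2 and 3.08 and 468, 386, 453, 473 and 446 CPM (6.62 ± 0.27), with tumor 2 lowest, and Col6a3 at 6.93, 7.44 and 4.7 and 478, 262, 592, 775 and 761 CPM (6.49 ± 0.43), again with tumor 2 lowest. Nrep (6.21 ± 0.31), a protein of regenerating neurons and wounds, and Lsp1 (5.98 ± 0.29), an actin-binding protein of leukocytes, were the remaining genes among the 8 largest rises with at least 1 CPM in every culture.

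Matrix genes as a class were higher in tumor. Of 19 genes for fibrillar collagens and their crosslinking 16 rose and none fell, or 1 with the replicate block or GC offsets (median 3.76). Col5a1 went from 638, 526 and 530.5 to 1235, 1038, 1577, 2970.5 and 1879.5 CPM (1.62 ± 0.32), and Serpinh1, the collagen chaperone HSP47, gave 0.30 ± 0.15 (adjusted p = 0.10, and 0.0085 with the block). Lox, a crosslinking enzyme, had 1 count in culture and 31.7, 19.5, 23.9, 50.9 and 64.9 CPM in tumor. Of 16 matricellular genes 13 rose and 2 fell. Spp1, which encodes osteopontin, went from 592, 594 and 493 to 3542, 3508, 4298, 3452 and 4742 CPM (2.8 ± 0.20), Sparc from 401, 424 and 418 to 2123, 1687, 1683, 2017 and 1579 CPM (2.13 ± 0.17) and the fibronectin gene Fn1 from 713, 689 and 1250.0 to 2419, 1614, 4171, 4558 and 5598 CPM (2.05 ± 0.40). Sparc varied little among tumors, whereas Fn1 was higher in tumors 3, 4 and 5 than in tumors 1 and 2. Tenascin C (Tnc) rose by 4.02. Thbs1 was at 1473 to 2247 CPM in culture and 467 to 1541 CPM in tumor (-0.95 ± 0.33), and its call (adjusted p = 0.028) was lost without tumor 1, tumor 3 or culture 3 (up to 0.13). Ccn1, a matricellular target of YAP, fell (-0.86 ± 0.23, adjusted p = 0.0083, and 0.057 without culture 3).

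The basement membrane list was divided. Of 21 tested genes 13 rose and 1 fell, or 14 and 4 with the replicate block, but the 3 members of highest level did not pass: Col4a1 (0.41 ± 0.25, adjusted p = 0.17), Col4a2 (0.25 ± 0.19, 0.28) and Lamb1 (-0.15 ± 0.18, 0.47, and 0.044 with the block). Col18a1 went from 36.6, 34.7 and 24.9 to 630.5, 783, 659, 733 and 713 CPM (4.46 ± 0.20). Col15a1 and the laminin chain Lama4 had no count in culture, and stood at 72.1, 66.5, 74.9, 66.4 and 69.6 CPM and 57.2, 53.8, 60.9, 46.6 and 67.8 CPM in the tumors, at least 1147-fold and 939-fold higher. Of 21 matrix proteases and inhibitors 17 rose and 1 fell. The membrane-bound collagenase Mmp14 went from 264, 285 and 311 to 1333, 1252, 1086, 781 and 986 CPM (1.92 ± 0.20), the inhibitor Timp1 rose by 1.13 and Mmp9, a gelatinase of neutrophils and macrophages, by 6.4. Timp2 (0.68 ± 0.18, adjusted p = 0.0083) lost its call under GC offsets (0.12) and without culture 1 (0.054). The members called lower in these 2 lists, Col4a5 and Adamts1, lost their calls without any 1 of 6 and 5 libraries (adjusted p up to 0.12 and 0.090).

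Cell cycle genes were lower in tumor with few exceptions. Of 32 DNA replication genes 31 fell (median -1.48) and of 25 mitosis genes all 25 fell (median -1.45), in a comparison where 24.5% of genes tested fell. Rrm2, a subunit of ribonucleotide reductase, went from 653, 644 and 549 CPM in cultures 1 to 3 to 91.1, 101, 109.5, 108 and 112 CPM in tumors 1 to 5 (-2.56 ± 0.14, adjusted p = 8.0e-08). Pcna, the replication clamp, fell by 1.53 and Mcm5, part of the replicative helicase, fell by 1.75. Fen1 was the member that did not pass (-0.61 ± 0.40, adjusted p = 0.21), at under 4 CPM in every library.

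Mki67, the proliferation antigen Ki-67, went from 483, 431 and 402 to 116, 127, 159.6, 173 and 201 CPM (-1.5 ± 0.18, adjusted p = 4.0e-05), with tumor 1 lowest and tumor 5 highest. Top2a, the topoisomerase that untangles chromosomes, fell by 1.7, the cyclin Ccna2 fell by 1.56 and the kinesin Kif11 fell by 2.1. Ect2, which directs cytokinesis, had the largest fall of the mitosis list, from 378, 368 and 454 to 24.1, 48.1, 52, 60.6 and 119 CPM, and Birc5, which encodes survivin, the smallest, from between 126 and 185 CPM to between 60.9 and 126 CPM with overlapping groups (-0.92 ± 0.23). Ube2c, the ubiquitin-conjugating enzyme of the anaphase-promoting complex, went from 377, 387 and 311 to 189, 234, 125, 125 and 119 CPM (-1.18 ± 0.23). The summed macrophage, endothelial and fibroblast markers were higher in the same libraries, and their part in these falls was not tested.

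Promoter sequences are shown for members whose start site RefSeq gives once, because mitotic genes share short elements at which their periodic repression and activation are known to act: the CHR element TTTGAA and the CCAAT box. Shares here and below are of genes with a promoter sequence, each counted once if any of its RefSeq starts held the match. In the 250 bases before a start, read on both strands, 9 of 21 mitosis genes (42.9%) held TTTGAA against 12.8% of 10391 tested genes. CCAAT was held by 18 (85.7%) against 40.2%. The DNA replication list held TTTGAA in 4 of 25 (16%) and CCAAT in 14 (56%). A match is a description of the letters and not evidence of binding. The sequences below are from RefSeq on GRCm38.p6, 5′ to 3′ on the gene's strand and ending at the base before the start, with TTTGAA and CCAAT, or their reverse complements, in capitals.
Mki67, chr7:135716380-135716629, minus strand: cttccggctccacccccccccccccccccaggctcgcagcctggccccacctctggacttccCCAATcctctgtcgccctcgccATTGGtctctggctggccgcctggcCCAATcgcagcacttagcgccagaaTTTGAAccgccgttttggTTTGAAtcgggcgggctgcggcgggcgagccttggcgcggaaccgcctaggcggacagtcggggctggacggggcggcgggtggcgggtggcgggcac
Ube2c, chr2:164769679-164769928, plus strand: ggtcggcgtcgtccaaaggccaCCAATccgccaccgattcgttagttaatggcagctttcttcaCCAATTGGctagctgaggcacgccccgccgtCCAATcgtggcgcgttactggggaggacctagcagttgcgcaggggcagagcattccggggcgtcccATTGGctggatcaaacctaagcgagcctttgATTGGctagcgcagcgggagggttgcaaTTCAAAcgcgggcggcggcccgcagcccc
Mki67 held TTTGAA at 116 and 98 bases before the start, and Ube2c held it 1 time, on the opposite strand, at 29 bases. In Ube2c a pair of CCAAT matches on opposite strands overlapped each other.

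**Figure D3:**
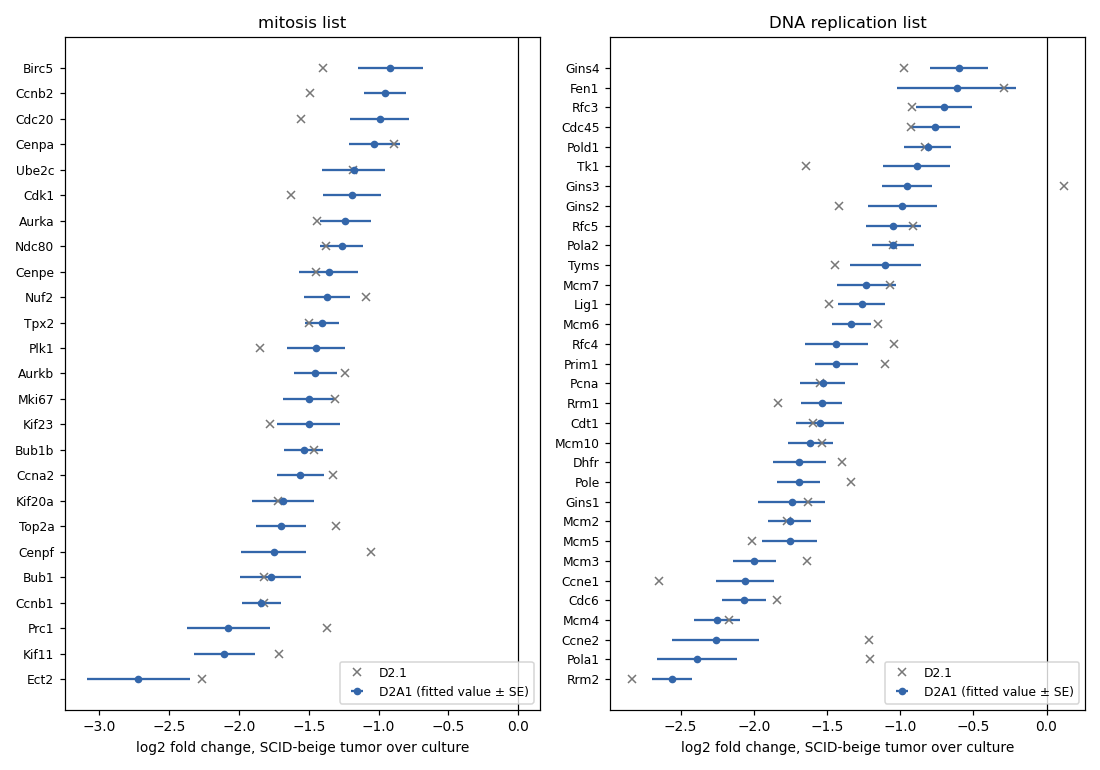
Log2 fold change of tumor over culture, with its standard error, for the members of the mitosis and DNA replication lists in D2A1 (points with bars) and in D2.1 (crosses). Every D2A1 point is below 0, from -2.72 for Ect2 to -0.60 for Gins4, and of the crosses that of Gins3 alone is above 0.

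The machinery of the first cell cycle phase did not move together. Of 11 tested G1 genes 3 rose and 2 fell. Cdkn1a, the p53-inducible inhibitor p21, went from 10.8, 9.86 and 7.25 to 129, 125, 86.7, 112 and 96.7 CPM (3.56 ± 0.22), Cdkn2b, the inhibitor p15, from between 15 and 22.2 CPM to between 44.9 and 68.4 CPM (1.68 ± 0.22), and Cdk6 rose by 1.62. Cyclin D2 (Ccnd2) fell from 241, 233 and 327 to 96.7, 95.9, 183, 111 and 169.7 CPM (-1.02 ± 0.24). Ccnd1 (-0.30 ± 0.16, adjusted p = 0.13) and Cdk4 (-0.42 ± 0.18, 0.070, and 0.042 with the block) did not pass, although 9 genes, 4 higher and 5 lower, passed with the replicate number as a block.

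Myc (chr15:61985391-61990374, plus strand), the growth regulator, was at 279.9, 282 and 371 CPM in cultures 1 to 3 and 256, 292, 263, 246 and 505 CPM in tumors 1 to 5. The groups overlapped, tumor 5 was far above the rest, and the change was 0.0050 ± 0.24 (adjusted p = 0.99), or -0.23 without tumor 5. Of the other genes of its network Mxd4 (2.73, and 3.57 without culture 3), Mxi1 (1.32) and Mxd1 (1.95), which compete with Myc for its partner, rose, and the partner Max gave -0.14 (adjusted p = 0.52); in all 4 of 10 tested members rose and 2 fell. Ribosome biogenesis, a process that Myc drives in many cells, was lower: 24 of 28 genes fell and none rose (median -1.18). Ncl, nucleolin, went from 3645, 3585 and 2639.9 to 911, 898, 888, 872 and 1086 CPM (-1.82 ± 0.16), Npm1, nucleophosmin, from between 2028 and 2905 CPM to between 919.99 and 1338 CPM (-1.25 ± 0.18), and Mybbp1a fell by 1.4. The helicase Ddx21 had the largest fall of the list (-1.95 ± 0.18). Fbl, Pes1, Bop1 and Nop16 did not pass, with changes of -0.62 to -0.33, although Fbl did with the replicate block (adjusted p = 0.015).

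Ribosomal proteins themselves gave no such pattern. Of 76 tested genes 4 rose and 4 fell (median 0.0029 and 27 members with an annotation overlap), Rplp0 gave 0.52 ± 0.26 (adjusted p = 0.10, and 7.9e-05 with the block), Rpsa 0.29 ± 0.25 (0.35, and 0.0017) and Rpl10 0.38 ± 0.21 (0.14, and 0.0011). The falls of Rps10 (-6.0) and Rpl13a (-4.4) were in overlapping genes. With the replicate block 31 members rose and 5 fell, and with GC offsets 4 rose and 15 fell.

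Lipid synthesis genes fell together. Of 22 tested cholesterol genes 19 fell and none rose (median -0.96), and 16 fell when the 3 members with an annotation overlap, Fdps, Hmgcs1 and Idi1, were left out. Sqle, the squalene epoxidase, went from 385, 378 and 431 to 108, 137, 117, 106 and 153 CPM (-1.68 ± 0.15, adjusted p = 4.3e-06). Srebf2, the transcription factor that governs the pathway, gave -0.29 ± 0.14 (adjusted p = 0.11, and 0.012 with the replicate block). Of 12 fatty acid genes 9 fell and none rose: Scd2, a desaturase, from 1105, 1062 and 1621 to 324, 279, 498, 515 and 559 CPM (-1.54 ± 0.25), the synthase Fasn from between 807 and 914 CPM to between 319.6 and 474 CPM (-1.18 ± 0.16) and Acly, which makes cytosolic acetyl-CoA, from between 344 and 351 CPM to between 112 and 203 CPM (-1.19 ± 0.18). Scd1 overlapped between groups, at 64 to 479 CPM in tumor (-0.63 ± 0.60, adjusted p = 0.38, and 1.5e-08 with the block). The block estimate leaves out tumors without a culture of the same number, among them the tumor with the highest Scd1 level. Its p-value therefore does not show a change across all the tumors. With 1 library left out the unblocked change of Scd1 ran from -1.6 to -0.43. Of 15 cholesterol genes with a promoter sequence 14 (93.3%) held CCAAT and 1 (6.67%, against 1.26% of all) held the sterol element TCACNCCAC.

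Amino acid and protein folding responses were mixed. Of 20 Atf4 response genes 11 fell and 4 rose. Psat1, of the serine pathway, went from 542, 587 and 503 to 219.2, 236, 166, 151 and 164 CPM (-1.54 ± 0.17), and Phgdh gave -0.65 ± 0.25 (adjusted p = 0.044), a call lost without any 1 of 6 libraries (up to 0.14). Ddit3 (1.78) and Atf5 (1.58), stress-induced transcription factors, rose, while Atf4 itself, which is regulated mainly in translation, gave -0.050 (adjusted p = 0.82). Of 14 genes of the unfolded protein response 3 rose and 5 fell: Calr (-0.56) fell, Xbp1 (1.23) rose, Hspa5 gave -0.48 (adjusted p = 0.057, and 0.042 with the replicate block) and Pdia6 -0.14 (0.39). All 9 heat shock genes passed, 5 higher and 4 lower, or 2 and 3 with GC offsets. The constitutive chaperones fell, Hsp90aa1 from 2663, 2689.8 and 2608 to 600.3, 731, 953, 731 and 961 CPM (-1.74 ± 0.18), Hspd1 fell by 1.48 and Hspe1 fell by 0.90, which lost its call under GC offsets (adjusted p = 0.10). The stress-inducible Hspa1a had 4 counts in all cultures and 7.17 to 14.4 CPM in tumor.

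Hypoxia genes were higher in tumor: 15 of 18 rose and 1 fell (median 1.72). Vegfa, the chief vessel growth factor, went from 91.5, 85.2 and 102 to 286, 189, 259, 420.5 and 449 CPM (1.79 ± 0.27, adjusted p = 0.00020), and Slc2a1, the glucose transporter GLUT1, from 73.7, 69 and 59.1 to 292, 210.3, 161, 311 and 299.97 CPM (1.92 ± 0.23). Ndrg1 went from 7.5, 6.88 and 8.71 to 294, 169.98, 163, 284 and 249.7 CPM (4.91 ± 0.28) and Car9, a carbonic anhydrase that exports acid, from between 0.819 and 1.1 CPM to between 11.3 and 21.4 CPM (4.03 ± 0.32). Tumor 3 was the lowest for Slc2a1 and Ndrg1, and tumor 2 for Vegfa. Egln3 (2.84) rose, and Egln1, the oxygen sensor, gave 0.53 ± 0.16 (adjusted p = 0.013), a call lost under GC offsets (0.15, adjusted p = 0.45).

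The hypoxia response element of HIF is built on ACGTG. Of 16 hypoxia genes with a promoter sequence 12 (75%) held these letters in the 250 bases before a start, against 24.6% of tested genes. Both strands were read. The promoters of the glucose transporter and the oxygen sensor are given from RefSeq on GRCm38.p6, with ACGTG in capitals. Both genes are of the 3 members of highest level.
Slc2a1, chr4:119108495-119108744, plus strand: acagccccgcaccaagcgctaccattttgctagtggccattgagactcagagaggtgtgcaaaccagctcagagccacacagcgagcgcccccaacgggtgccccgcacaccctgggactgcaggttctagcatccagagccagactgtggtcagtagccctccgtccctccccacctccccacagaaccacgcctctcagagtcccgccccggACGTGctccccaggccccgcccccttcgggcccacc
Egln1, chr8:124949255-124949504, minus strand: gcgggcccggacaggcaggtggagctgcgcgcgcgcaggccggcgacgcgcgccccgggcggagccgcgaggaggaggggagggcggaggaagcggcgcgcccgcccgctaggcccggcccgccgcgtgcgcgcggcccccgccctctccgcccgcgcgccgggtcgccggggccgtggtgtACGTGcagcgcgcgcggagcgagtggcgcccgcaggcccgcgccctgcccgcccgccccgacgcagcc
The element lay 36 bases before the start of Slc2a1 and 68 bases before that of Egln1.

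Glycolysis as a whole moved less than the hypoxia list. Of 19 genes 9 rose and 3 fell (median 0.51), and with GC offsets 6 rose and 7 fell (median 0.066). The enzymes of highest level did not pass: Gapdh (0.51 ± 0.22, adjusted p = 0.065, and 0.0011 with the block), Pkm (0.025 ± 0.21, 0.93, but a fall of -0.45 with 0.031 under GC offsets) and Eno1 (-0.14 ± 0.22, 0.60). The isozymes Eno2 (15.6, 16.1 and 20.3 to 131, 75.7, 67.1, 156 and 109.7 CPM, 2.64 ± 0.30) and Aldoc (4.88 ± 0.52), which are low in culture, rose. Slc16a1, the lactate transporter MCT1, fell by 0.97, and Hk2 (-0.61 ± 0.22, adjusted p = 0.034) lost its call without any 1 of 5 libraries (up to 0.11).

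Growth factors for vessels and stroma were higher. Of 19 tested 14 rose and none fell, or 2 with the block (median 2.61). Pdgfa, a ligand of the PDGF receptors, went from 25.2, 29.8 and 25.6 to 197, 195, 141, 144 and 143 CPM (2.61 ± 0.19), Pgf, placental growth factor, from between 0.882 and 2.15 CPM to between 29.5 and 52.8 CPM (4.83 ± 0.34) and Angptl4, an inhibitor of lipoprotein lipase, from 4.29, 2.85 and 1.63 to 93.5, 102, 88.8, 99.6 and 88.5 CPM (5.02 ± 0.29). Vegfb gave -0.41 ± 0.17 (adjusted p = 0.056, and 0.038 with the block). Of 13 TGF-beta genes 10 rose and none fell, or 2 with the replicate block (median 1.59), with Tgfb1 at 75.8, 74.2 and 73.1 CPM in culture and 325, 376, 261, 285 and 245 CPM in tumor (2.0 ± 0.18) and Tgfb2 at 27.3 to 32.8 and 84.3 to 155 CPM (1.99 ± 0.23). The latent TGF-beta binding proteins Ltbp3 (0.73 ± 0.14) and Ltbp4 (0.52 ± 0.13) lost their calls under GC offsets (adjusted p = 0.25 and 0.79).

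All 10 tested Wnt antagonists and targets rose, of 15 in the list (median 6.66, or 5.51 with bounds). Of these 10, 4 had no count in culture and could be tested only as rises, and the other 5 members of the list did not pass the filter. Axin2, a feedback inhibitor that reports beta-catenin activity, went from 0.945, 0.434 and 3.02 to 59.2, 47.1, 65.5, 66.5 and 70.5 CPM (5.37 ± 0.49, and 6.46 without culture 3), and Tcf7, a transcription factor of the pathway, from 9.71, 9.61 and 5.46 to 114, 85.3, 78.2, 68.8 and 96.9 CPM (3.42 ± 0.26). Dkk3, a secreted protein of the Dickkopf family, had no count in culture and 10.1, 3.92, 6.5, 11.6 and 5.46 CPM in tumors 1 to 5, at least 123.4-fold higher.

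Interferon-stimulated genes were divided. Of 33 genes 15 rose, 4 fell and 14 did not pass (median 0.51), against 33.6% and 24.5% of all genes. Bst2, the antiviral protein tetherin, gave -0.41 ± 0.31 (adjusted p = 0.28) and Oasl2 0.22 ± 0.15 (0.21), both high in culture. Irf7, the amplifier of the response, went from 39.5, 35.6 and 27.8 to 118, 172, 118, 109 and 72.3 CPM (1.78 ± 0.26), Ifit3 from 3.4, 5.02 and 8.53 to 34, 31.8, 42.2, 25.4 and 23.4 CPM (2.47 ± 0.32) and Mx1 from between 0.693 and 0.987 CPM to between 10.8 and 25 CPM (4.29 ± 0.36). The core of the interferon-stimulated response element, GAAA, any 2 bases and GAAA again, at which interferon-activated factors are known to bind, was in 12 of 24 promoters of the list (50%) and in 3.34% of those of tested genes, and Ifit3 is shown as a member that rose, with both matches, on the opposite strand, in capitals (RefSeq, GRCm38.p6).
Ifit3, chr19:34583279-34583528, plus strand: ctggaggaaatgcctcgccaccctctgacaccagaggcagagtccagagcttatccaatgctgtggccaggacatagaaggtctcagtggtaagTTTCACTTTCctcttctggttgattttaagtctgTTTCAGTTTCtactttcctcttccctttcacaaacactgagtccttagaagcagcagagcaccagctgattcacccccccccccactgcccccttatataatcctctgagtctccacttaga

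Antigen presentation genes were higher. Of 12 MHC class I genes 11 rose and none fell, or 1 with the replicate block (median 2.02). H2-D1, a class I heavy chain, went from 94.6, 97.2 and 41.3 to 386, 553, 397, 437 and 364 CPM (2.46 ± 0.29), with the caution that class I genes share sequence. B2m, the light chain, went from 372, 365 and 314 to 786, 922, 709, 719.5 and 617 CPM (1.1 ± 0.17), the peptide loader Tapbp rose by 1.41, and the immunoproteasome subunits Psmb8 and Psmb9 by 3.79 and 4.67. All 7 class II genes rose. Cd74, the invariant chain, was at 0.252, 0.372 and 0.058 CPM in culture and 141, 181, 179.9, 128 and 113 CPM in tumor, H2-Eb1 at 0 and 17.5 to 35.5 CPM, and H2-DMa at 4.35 to 4.73 and 21.3 to 37.1 CPM. Macrophages carry class II, and their summed markers moved with it; the part of each cell type was not tested. Of 13 complement genes 12 rose, among them C3 (between 0.693 and 1.3 CPM in culture and between 15.7 and 54.4 CPM in tumor) and the receptor C5ar1 (0 in culture and 17.5 to 27.4 CPM in tumor).

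Chemokines and cytokines mostly rose (21 of 27, 3 lower, median 5.09), but the members of highest level in culture did not. Csf1, the growth factor of macrophages, fell from 456, 424 and 489 to 232, 215.8, 224, 243 and 255 CPM (-0.96 ± 0.13, adjusted p = 7.5e-05), and Cx3cl1 gave -0.12 ± 0.14 (adjusted p = 0.47). Cxcl14 had no count in culture and 81.7, 72.1, 52.3, 73.1 and 41.4 CPM in tumor, at least 1052-fold higher. Ccl2, which recruits monocytes, went from between 0.693 and 0.992 CPM to between 19 and 36.8 CPM (5.07 ± 0.33), and Il1b was at 0 in culture and 21.3 to 69.9 CPM in tumor. Cxcl5 and Lif were called lower, but Cxcl5 lost the call without any 1 of 5 libraries (adjusted p up to 0.094; the change was -1.87, and -3.12 without tumor 4) and Lif without any 1 of 6 (up to 0.12).

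**Figure D4:**
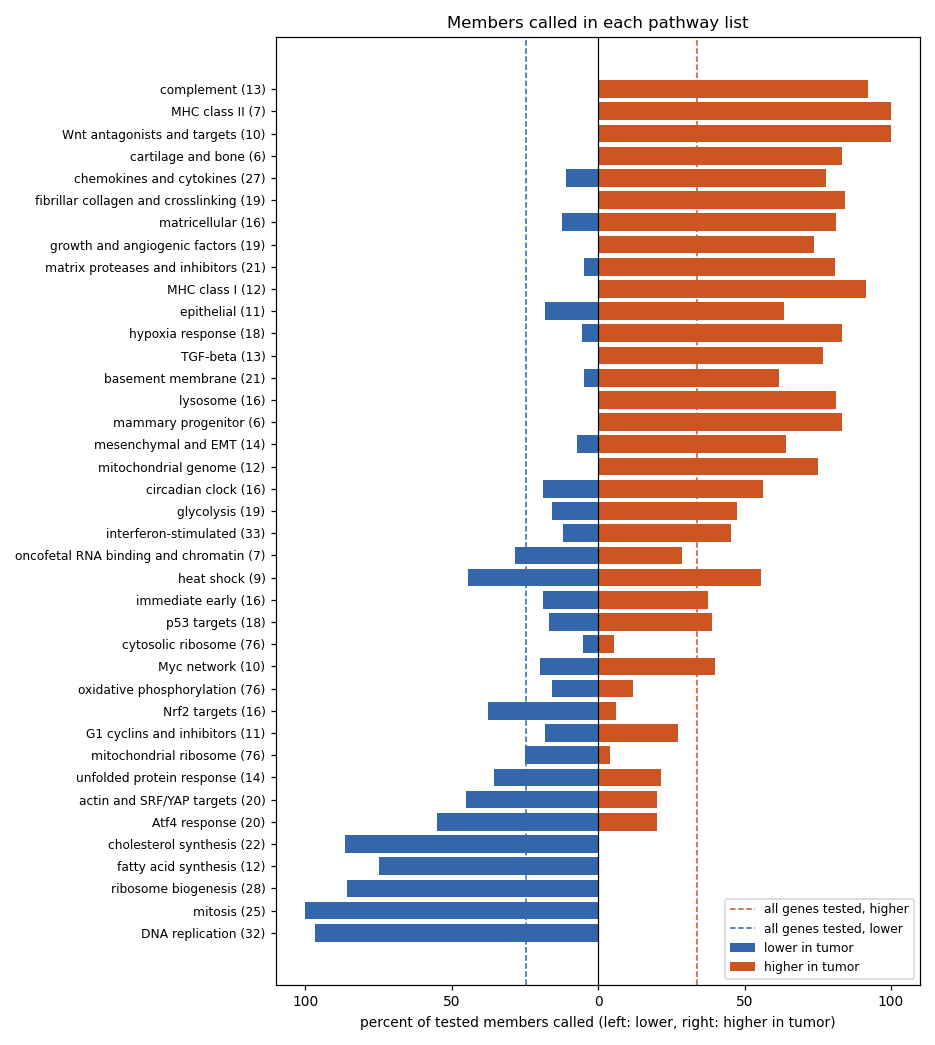
Percent of the tested members of 39 gene lists called higher (right) and lower (left) in tumor, with dashed lines at 33.6% and 24.5%, the shares of all genes tested. Mitosis, DNA replication, ribosome biogenesis and cholesterol synthesis lie far to the left with no member higher, whereas class II, Wnt, complement and hypoxia lie to the right.

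Epithelial and mesenchymal markers, which the study used to describe the 2 lines, both included genes that rose. The label of a mammary carcinoma line was checked first: cultured D2A1 carried keratins of simple epithelium, Krt8 at 159, 151 and 31.8 CPM and Krt18 at 209, 208 and 109 CPM, but Epcam at 0.063 to 0.232 CPM and Cdh1, E-cadherin, at 1.04 to 2.08 CPM were close to absent, Krt5 was at 0, and the mesenchymal filament gene Vim was at 4454, 4627 and 3610.5 CPM. In tumor Krt8 was at 256, 314, 167, 170.1 and 202 CPM (0.96 ± 0.43, adjusted p = 0.075, and 0.014 with the replicate block), and culture 3 was low. Krt18 rose to 432, 528, 319, 265 and 314 CPM (1.08 ± 0.28, adjusted p = 0.0058). Itgb4, the integrin of hemidesmosomes, had the largest rise of the list, from 2.71, 3.35 and 1.57 to 121, 155, 96.4, 111 and 158 CPM (5.66 ± 0.31). Cdh1 rose to 11.1, 10.5, 6.29, 8.47 and 5.27 CPM (2.45 ± 0.37) and Epcam to between 0.868 and 1.96 CPM. Krt14 stayed under 4 CPM (1.8 ± 0.71, adjusted p = 0.047, lost under GC offsets with 0.11 and without any 1 of 5 libraries with up to 0.15). Of 11 tested members 7 rose, and Ocln (-2.65, and -3.39 without tumor 3) and Elf3 fell, the call of Elf3 being lost without any 1 of 6 libraries (adjusted p up to 0.12).

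Of 14 mesenchymal genes 9 rose and 1 fell. Snai1, a repressor of Cdh1, went from 13.7, 15.1 and 8.3 to 95.8, 86.3, 73.3, 90.2 and 143 CPM (2.98 ± 0.28), whereas the related Snai2 fell from 10.5, 8.06 and 24.6 to 2.4, 3.79, 3.63, 6.97 and 2.6 CPM (-1.89 ± 0.41, and -1.26 without culture 3). Itga5, the fibronectin receptor, rose by 2.35, Notch1 by 2.36 and Twist2 by 4.07 from under 0.2 CPM. Vim (0.35 ± 0.18, adjusted p = 0.11) and Cd44 (0.24 ± 0.22, 0.37) did not pass. Of 6 mammary progenitor genes 5 rose: Cd74, Sox9 (10.3, 7.94 and 12.5 to 29.4, 14.9, 19.6, 23.2 and 48.4 CPM, 1.4 ± 0.36), Cd200 (1.48), Ptn (between 0 and 0.31 CPM in culture and between 3.43 and 8.03 CPM in tumor) and Id4, which lost its call (adjusted p = 0.034) without any 1 of 5 libraries (up to 0.12). Nrg1 gave -0.88 ± 0.41 (adjusted p = 0.089, and 0.046 with the replicate block).

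Stress, clock and contractile lists moved in both directions. Of 18 p53 targets 7 rose and 3 fell, or 6 and 5 with the replicate block. Besides Cdkn1a, the gene Trp53 itself was called lower (121, 118 and 53.1 to 56.4, 55.5, 57.1, 39.9 and 41.2 CPM, -0.96 ± 0.25). Its groups overlapped, as culture 3 lay within the tumor range (exact permutation p = 0.14). Bax gave -0.26 (adjusted p = 0.37). Perp, a desmosome protein, fell from 119, 121 and 128 to 18.1, 15.6, 14.7, 8.66 and 19.9 CPM (-2.99 ± 0.23). Of 16 Nrf2 targets 6 fell and 1 rose; Txnrd1 fell by 0.74 and Gclm, of glutathione synthesis, fell by 1.78, Hmox1 rose by 0.87, and Tkt (0.062, adjusted p = 0.83) and Pgd (0.20, 0.46, and 0.014 with the block) did not pass. Of 16 clock genes 9 rose and 3 fell, or 8 and 5 with the block, with Dbp (1.97) higher and Cry1 (-1.59) lower; Per1 (0.96 ± 0.25) lost its call under GC offsets (adjusted p = 0.16), Clock (-1.05 ± 0.31) without culture 3 (0.087) and Bhlhe40 (0.84 ± 0.26) without culture 1 or 2 (up to 0.062). Of 16 immediate early genes 6 rose and 3 fell, or 6 and 6 with the block. Fos was at 169, 167 and 129 CPM in culture and 8.78, 7.98, 9.01, 18.7 and 80.03 CPM in tumor, where tumor 5 was far above the rest (-2.63 ± 0.67, and -3.79 without it), Klf4 rose by 2.87, and Junb (0.42, adjusted p = 0.13, and 0.041 with the block) and Ier3 (-0.16, 0.62, and 0.023) did not pass. Ier2 was called lower (-0.56 ± 0.22, adjusted p = 0.045), and the call was lost without any 1 of 5 libraries (up to 0.15). Of 20 actin and SRF or YAP targets 4 rose and 9 fell, or 7 and 10 with the block; Ankrd1, a YAP target, fell from 176, 174 and 237 to 75.8, 56.3, 54.2, 59.3 and 52.4 CPM (-1.71 ± 0.17), Actb (-0.34, adjusted p = 0.20) and Flna (-0.23, 0.20, and 0.041 with the block) did not pass, and Actg1 (-0.58) lost its call without culture 1 or 2 (up to 0.068).

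Transcripts of the mitochondrial genome were higher, and nuclear genes for mitochondrial proteins were not. Of 12 tested genes of the mitochondrial genome 9 rose and none fell, or 1 with the block (median 1.1), with mt-Co1 at 4595, 3795 and 2346 CPM in culture and 7403, 7007, 8411, 6723 and 7356 CPM in tumor (1.04 ± 0.23), mt-Cytb at 1.15 ± 0.27 and mt-Nd1 at 1.1 ± 0.29. Of 76 nuclear genes of oxidative phosphorylation 9 rose and 12 fell (median -0.082), with 22 and 19 under the replicate block and 8 and 22 under GC offsets. Cox4i1 gave 0.41 ± 0.25 (adjusted p = 0.18, and 0.0016 with the block), and the ATP synthase subunits Atp5b (-0.57 ± 0.19) and Atp5a1 (-0.51 ± 0.16) fell, calls that were lost without culture 1 or 2 and, for Atp5b, without tumor 3 or 4 (adjusted p up to 0.085 and 0.072). Of 76 mitochondrial ribosome genes 19 fell and 3 rose (median -0.33), or 21 and 8 with the block. Mrpl13 gave -0.75 ± 0.20 and lost its call under GC offsets (adjusted p = 0.62), and Mrps26 (-0.55, 0.065, and 0.011 with the block) and Mrpl38 (-0.42, 0.14) did not pass.

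Lysosome genes were higher (13 of 16, none lower, median 1.47): the protease Ctsb went from 396, 416 and 519 to 1519, 1340.0, 1390.1, 1376 and 1228 CPM (1.63 ± 0.16) and Psap from between 311 and 424 CPM to between 1072 and 1316 CPM (1.78 ± 0.17), Ctss, the cathepsin of antigen-presenting cells, had 1 count in culture and 154 to 261 CPM in tumor, and Lamp1 gave 0.042 ± 0.20 (adjusted p = 0.87). Of 6 tested cartilage and bone genes 5 rose. Ibsp, bone sialoprotein, had 2 counts in all cultures and 98.7, 78.8, 128, 122 and 105 CPM in the tumors, a ratio of 2628 (interval 727 to 21696), and Col10a1, the collagen of mineralizing cartilage, 1 count and 13.9 to 37.5 CPM. Runx2 gave 0.57 ± 0.24 (adjusted p = 0.062). Of 7 tested oncofetal genes 2 rose and 2 fell: Igf2bp1, an mRNA-binding protein of embryonic tissue, from 159.5, 160.02 and 132 to 69.5, 70.5, 72.4, 71.9 and 65.4 CPM (-1.11 ± 0.13), and the imprinted Peg3 from 12.9, 10.8 and 24.8 to 1.37, 0.744, 2.51, 5.73 and 3.22 CPM (-2.56 ± 0.51). Hmga1 (0.44, adjusted p = 0.15, and 0.0023 with the replicate block) and Igf2bp2 (-0.30, 0.25, and 0.0045) did not pass.

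Genes that D2A1 expressed and D2.1 tumors lacked were read as well, because D2.1 tumors grew in the same kind of host. With at least 5 CPM on average in D2A1 culture and 3 counts or fewer in each D2.1 SCID-beige tumor, 16 genes met this rule, of which 10 had an annotation overlap. The other 6 had a median change of -1.59, with 4 lower and 1 higher. Morc1 (chr16:48431237-48630900, plus strand), known from male germ cells, was at 20.2, 18.4 and 20.8 CPM in cultures 1 to 3 and 21.7, 16.4, 20.5, 17.6 and 27.1 CPM in tumors 1 to 5 (0.062 ± 0.20, adjusted p = 0.81), with overlapping groups. Olfr1501, an olfactory receptor gene, was at 9.83, 8.0 and 12.9 CPM in culture and 50.1, 52, 82.3, 92 and 69.4 CPM in tumor (2.75 ± 0.27). Dlx2 was described above, and Elovl4, which elongates very long fatty acids, fell by 3.04, Aox4, an aldehyde oxidase, fell by 1.98 and Igsf11, an adhesion molecule, fell by 1.2.

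The change from culture to tumor was then set against that of the sister line D2.1, whose cultures and tumors were split over the same 2 tables. Of 13265 genes tested in both lines, 5054 were called in the same direction, 65.6% of the calls of D2A1 and 72.7% of those of D2.1, and 204 in opposite directions. The difference between the lines was tested as the product of line and state in one edgeR fit, in which a gene's own table effect cancels if it is alike in both lines. Of 15077 genes 1930 (12.8%) passed, 1234 (8.18%) with a larger and 696 (4.62%) with a smaller log2 change in D2A1. In the DNA replication list 1 of 32 genes passed and in the mitosis list 0 of 25, with D2.1 medians of -1.41 and -1.45. Without adjustment 5 and 2 genes of these lists had a p under 0.05 in edgeR, and DESeq2 called 2 and 0. Mki67 differed by -0.17 ± 0.30. Of 28 ribosome biogenesis genes edgeR called 0 (2 without adjustment, 1 by DESeq2) and of 7 class II genes 0 (1 without adjustment, 0 by DESeq2).

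Many genes of the matrix lists differed. Of 16 matricellular genes 11 had a larger log2 change in D2A1, as had 9 of 19 for fibrillar collagen, 10 of 22 for proteases and 10 of 19 growth factors, against 8.18% of all genes. Other lists held similar shares, such as 7 of 14 mesenchymal genes in either direction. Type VI collagen rose by more in D2A1 (Col6a1 by 5.01 ± 0.24, adjusted p = 3.6e-10, Col6a2 by 5.1 and Col6a3 by 4.29), where D2.1 cultures held 1291 to 1492 CPM of Col6a1 and D2.1 tumors 2695 to 4321 CPM. The D2A1 tumors were below D2.1 tumors and cultures alike for this gene. Spp1, at 4542 to 8955 CPM in D2.1 culture, changed by -1.4 there, a difference of 4.22 ± 0.43. Lama4 started at 0 in D2A1 and at 5.01 to 10.5 CPM in D2.1 (198 to 319 CPM in its tumors), with a difference of 8.0.

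Keratins moved apart. Krt18 changed by -4.03 in D2.1, from between 549 and 1321 CPM to between 13.1 and 176 CPM, against 1.08 in D2A1 (difference 5.12 ± 0.87, adjusted p = 0.00049), Krt8 by -2.58 against 0.96 (difference 3.55), and Cdh1 by -1.56 against 2.45 (difference 4.03). The log2 changes of Axin2 and Tcf7 were 4.17 and 3.28 larger in D2A1; their D2.1 cultures stood at 13 to 23.8 and 54.5 to 77.6 CPM. Among cholesterol genes 10 of 22 had a less negative change in D2A1, the list median being -0.96 against -2.3. Hmgcs1 was an example, with -0.92 against -2.86. The chemokine list had 10 of 27 with a larger and 1 with a smaller change in D2A1.

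The largest differences of either sign came from genes near 0 in at least 1 of the 4 groups. Stra6 (9.52 ± 2.45, adjusted p = 0.016) was at 1.8 to 33.1 CPM in D2.1 tumors, and its call was lost without D2.1 culture 3 (0.16). Lcn2, the iron-chelating lipocalin, was at 0, 0.248 and 0.058 CPM in D2A1 culture, 14.8, 11.2, 12.9, 41.1 and 15.3 CPM in D2A1 tumors, 2.83 to 42.7 CPM in D2.1 culture and 2.87 to 12.9 CPM in D2.1 tumors (difference 9.59 ± 1.24). Igf2bp1 was retained at 65.4 to 72.4 CPM in D2A1 tumors but at 0 in D2.1 tumors, from 4.42 to 5.69 CPM in culture. On the other side, Olfm1, a secreted olfactomedin, was level in D2A1 (71.8, 73.6 and 93 CPM in culture, 86.7, 72.5, 83.2, 78.2 and 90.01 CPM in tumor, 0.048 ± 0.15) and went from between 0 and 0.0589 CPM to between 24.9 and 33 CPM in D2.1. Tceal8 (-0.25, adjusted p = 0.21) and Rnf219 (-1.2) were at 0 in D2.1 culture and at 3.19 to 3.84 and 0.896 to 2.79 CPM in D2.1 tumors. Col2a1, cartilage collagen, had 3 counts in all D2A1 cultures together, 0 in every D2A1 tumor and 48.1 to 150.4 CPM in D2.1 tumors. It was at the floor in both D2A1 groups, so no change was measured in D2A1. Its interaction call was lost without D2A1 culture 3 (adjusted p = 0.14). Ccnd2 and Eomes, which fell in D2A1, changed by 3.06 and 3.13 in D2.1 (differences -4.08 and -4.64).

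**Figure D5:**
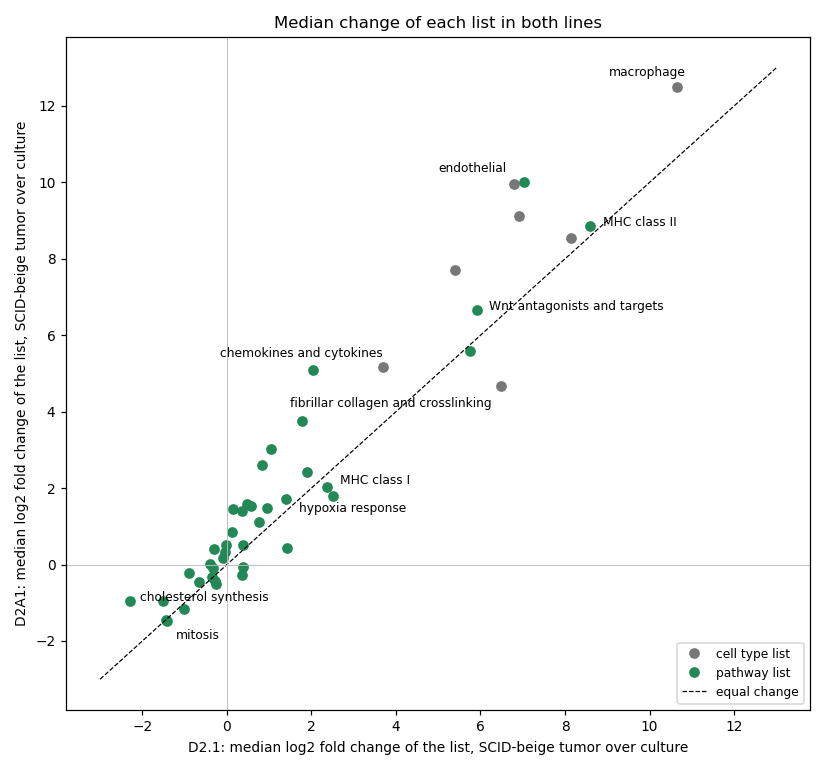
Median log2 fold change of tumor over culture for gene lists in D2.1 (x axis) and D2A1 (y axis), one point per list with at least 5 members tested in both lines, grey for cell type lists and green for the others, with a dashed line at equal change. The DNA replication and mitosis lists lie near that line, at -1.48 and -1.45 in D2A1, while matricellular genes (3.03), fibrillar collagen (3.76) and growth factors (2.61) lie above it.

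D2A1 tumors from BALB/c mice, which have T, B and NK cells, share the 3 cultures with the SCID-beige comparison, so their values are given side by side and without a test. C1qa was at 208 to 487 CPM in SCID-beige and 399 to 987 CPM in BALB/c tumors, Cd74 at 113 to 181 and 511 to 2334 CPM, H2-D1 at 364 to 553 and 904 to 2154 CPM, and B2m at 617 to 922 and 1129.9 to 2490.1 CPM. The groups did not overlap for Cd74, H2-D1 and B2m, and they did for C1qa. The share of all genes that do not overlap between these 2 tumor groups was not computed. Whether the genes of this paragraph stand out by that measure is therefore not known. Cxcl9, which interferon gamma induces, was at 3.41 to 5.45 and 34.2 to 107 CPM, and Cd8a at 0 to 0.27 and 1.11 to 8.61 CPM. Igfbp3 was at 216.5 to 229 CPM and Col6a1 at 408 to 512 CPM in BALB/c tumors, both below the SCID-beige range, and Mki67 at 129.9 to 284 CPM and Rrm2 at 107 to 144 CPM, overlapping it. Changes from culture were -1.5 and -1.18 for Mki67, 8.0 and 8.67 for Apoe, and -6.19 and -6.85 for Dlx2 in SCID-beige and BALB/c tumors respectively.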

How the data were processed

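RNA of 5 D2A1 tumors and 3 D2A1 cultures was sequenced on an Illumina NovaSeq instrument. The submitters' processing notes name STAR and mm10; the counter, its strand setting and the annotation of each table are not given in the sources used here. The authors deposited raw counts per gene with FPKM values beside them, cultures and tumors in separate tables. The deposited FPKM equal count over gene length and total in 100% of genes, but the 2 tables use different lengths (median ratio 0.600), so FPKM were not compared between them and only counts were used. A further 756 and 20013 genes are in 1 table alone and were left out. All columns were matched to samples.

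Genes passing filterByExpr were tested with edgeR 4.0.16 (R 4.3.3) by the robust quasi-likelihood test after TMM scaling, with Benjamini-Hochberg adjustment over all genes, and every adjusted p in the text is from edgeR. The standard error is the log2 change over the square root of F. CPM use TMM-scaled totals. The exact permutation test was 2-sided. The interaction of line and state was fitted over 16 libraries. Fold bounds set 3 counts over the 3 cultures as floor, and intervals and floors cover counting error only. Coordinates and exon overlaps are from GENCODE M21 (34490 of the shared genes matched), promoters from RefSeq. The code was tested on simulated data drawn with the same dispersion for every gene, which real data do not have. False calls there were 3.38% with edgeR and 11.5% with DESeq2 for D2A1 tumor against culture, and 2.49% for the interaction (edgeR). Counts from DESeq2 are therefore quoted only as alternatives.

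Genes were named by rule: the 8 largest rises and falls among called protein-coding genes with at least 20 CPM and no overlap, the 8 largest rises with at least 1 CPM in every culture, the 3 members of highest level in each list, genes that the study itself discusses, the 4 largest interactions of each sign, and members accounting for a list. The members and lists were chosen with earlier results of these data known. Labels give both groups replicate numbers 1 to 3 but do not say that same-numbered cultures and tumors belong together. Deviations of same-numbered libraries from their group means correlated at 0.131, 0.273 and 0.227, and libraries of different number were not compared in this way. The replicate block is therefore an alternative fit by number and not a known pairing. Tumors 4 and 5 have no culture of the same number and do not enter its estimate of the change. Alternatives were other scalings, filters and tools (DESeq2 1.42.0, limma 3.58.1), offsets for GC content or gene length in 20 bins, the replicate block, and each library left out; lost calls are quoted beside most of the genes concerned, calls gained with the block beside the gene, and calls gained with offsets in the closing section. Some genes that meet these rules are not reported here.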

Additional observations from a re-analysis of the deposited data

Results flagged for a closer look

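In 5 measures 1 tumor met Dixon's criterion for standing apart from the other 4, which chance alone meets in about 1 of 20 groups. The criterion was applied to the genes named outside the lists, save the largest negative interactions, and to each cell type sum. Among so many measures some are met by chance, so these 5 are descriptions and not evidence that a tumor differed. Igfbp3 was at 338.2 CPM in tumor 1, Col6a2 at 385.5 CPM in tumor 2, Myc at 504.7 CPM in tumor 5 and Lcn2 at 41.1 CPM in tumor 4. The summed macrophage list was 1938 CPM in tumor 5, the lowest of the 5.

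Among genes named as the largest rises, falls or interactions, 20 differed between D2A1 and D2.1 in their change by the interaction test (edgeR). Of all genes 12.8% passed that test. Genes named from lists or from the study were not counted here, and some of them, such as Krt18, also differed. Stra6, Lcn2, Igf2bp1, Lama4, Olfm1, Col2a1, Rnf219 and Tceal8 had been chosen because they passed it. The log2 change was larger in D2A1 for Stra6 (by 9.52), Lcn2 (9.59), Igf2bp1 (8.22), Lama4 (8.0), Col6a2 (5.10), Col6a1 (5.01), Lsp1 (4.83), Hgs (4.56), Col6a3 (4.29), Nrep (3.12) and Tmem119 (2.34). It was smaller in D2A1 for Olfm1 (-9.99), Col2a1 (-9.74), Rnf219 (-9.10), Tceal8 (-9.08), Rnf128 (-4.53), P3h2 (-3.24), Atp1b1 (-2.92), Cgn (-2.60) and Ptger1 (-2.43). Hgs, which has an annotation overlap, was the weakest of these (adjusted p = 0.0497, edgeR). Col2a1 was at the floor in both D2A1 groups.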

How the results depend on the processing

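None of the 234 called genes examined one by one changed direction under any alternative, and 199 kept their call under every alternative fixed at the start other than the log2 threshold; 22 lost it when 1 library was left out. The count of genes called was 8447 with DESeq2, 8146 with limma on log2 CPM (added after seeing the data), 7274 without genes that overlap a tumor-table gene (added) and 6745 to 8200 with 1 library left out. It was 968 (572 higher, 396 lower) among the 1918 tested genes of equal length in both tables (added), a smaller set by construction, and 5180 (1694 lower) with a log2 change beyond 1. Rises made up 57.8% of calls, 57.4% with DESeq2 size factors, 63.8% with library totals and 64.0% with upper-quartile scaling, which moved the median of all genes by 0.13. The change followed GC content across genes (Spearman 0.27), from a median of -0.36 in genes of lowest GC to 0.57 in those of highest GC, each 20% of genes, and the offsets removed this trend (0.098 and 0.109). Among list medians 9 changed sign under at least 1 setting: that of the cytosolic ribosome under 10 settings, of the Myc network and oxidative phosphorylation under 4 each, of the oncofetal list under 2, and of the immediate early (GC offsets), p53 (without tumor 5), Atf4, G1 and glycolysis lists (genes of equal length) under 1 each. The limma test on FPKM was not run, since the gene lengths of the tables differ.

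With the replicate block, which sets libraries of the same number together, 9299 genes were called (5071 higher, 4228 lower) and 2462 in the interaction. Of 289 genes examined it lost the calls of Csn3 and Id4 and gained 24. GC offsets lost 14 calls and gained 19, among them Cd44, Cdk4, Eno1, Vim and Vegfb, and length offsets lost 3 and gained 16, among them Gapdh, Col4a1, Col4a2 and Actb. The number of genes with a smaller change in D2A1 than in D2.1 was 1054 with DESeq2 and 448 to 783 with 1 library left out (448 and 460 without D2.1 culture 1 and 2); the cause was not tested. The median of line-restricted genes was -12.97 at 20 CPM or more in culture, -6.19 with 0 counts in every D2.1 tumor, -1.59 without overlapping genes and -9.24 to -8.42 with 1 library left out. Rises at the floor in culture were 268 with 0 counts and 1122 when D2A1 cultures alone were read. Stra6 and Col2a1 lost their interaction calls without 1 culture, and Stra6 without a filter (adjusted p = 0.084, edgeR). Without a filter the calls of Hbb-bs, Hba-a1, Hba-a2, Alas2, Fos, Id4, Cxcl5 and Col4a5 were lost.

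The following genes, none of them called as reported, changed sign, and Pkm was called with GC offsets (adjusted p = 0.031). Myc gave -0.0079 with DESeq2 and with its size factors, -0.30 with GC and -0.21 with length offsets, -0.0043 with all D2A1 groups, -0.039 with limma, -0.030 without a filter, -0.19 with the block and -0.0075 without overlapping genes, and ran from -0.23 to 0.14 with 1 library left out. With GC offsets Olfm1 gave -0.32, Tceal8 0.16, Pkm -0.45, Serpinh1 -0.088, Col4a1 -0.014, Col4a2 -0.22, Junb -0.037, Tkt -0.26, Cox4i1 -0.15, Lamp1 -0.035, Hmga1 -0.032 and Krt10 -0.019. With length offsets Olfm1 gave -0.13, Pkm -0.20, Lamb1 0.057, Flna 0.15, Tkt -0.013 and Lamp1 -0.087. With the block Cd44 gave -0.046, Morc1 -0.025, Max 0.031, Atf4 0.052 and Krt10 -0.14. Without a filter Pkm gave -0.022 and Lamp1 -0.0049. Atf4 gave 0.037 with library totals and 0.081 with upper-quartile scaling, where Cx3cl1 gave 0.00035. With 1 library left out the ranges were Olfm1 from -0.029 to 0.17, Morc1 from -0.050 to 0.14, Atf4 from -0.13 to 0.022, Pkm from -0.13 to 0.11, Tkt from -0.12 to 0.15 and Lamp1 from -0.067 to 0.23.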
